A study of Mus musculus with 3 samples.

Results

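The 9 complement genes C1ra, C1s1, C4b, C2, Serping1, C3, Cfb, Cfd and C7 were followed in fibroblasts of the mouse knee synovium and infrapatellar fat pad. They were taken by symbol from a fixed list, and all 9 were among the 32285 genes of the 3 libraries. The libraries are droplet-based single-cell RNA libraries (10x Genomics single cell 3′ v3), 1 for each of 3 groups of wild type mice. The first came from mice 1 week after DMM, the surgical destabilization of the medial meniscus, which models osteoarthritis and in which a knee ligament that holds the meniscus is cut. The second came from mice 2 months after the same operation, and the last from control mice 2 months of age, for which the labels name no sham operation. DMM was done at 2 months of age, so the mice of the 2-month library were older than the control mice by as long as they had carried the injury, and age and time after injury cannot be told apart. Tissue of 5 to 10 mice was pooled for each library, digested with 0.25% trypsin for 30 min and then with type I collagenase (300 U/mL) for 30 min, and sorted for live cells. With 1 library per group there was no replicate and no test between groups, so each interval below is a 95% interval that covers counting error only.

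Complement is a cascade of plasma and tissue proteins that marks surfaces for removal and drives inflammation. In the classical pathway the proteases C1r and C1s, activated on antibody or surface-bound C1q, cleave C4 and C2 into a C3-cleaving enzyme, and C1 inhibitor, the product of Serping1, blocks both proteases. In the alternative pathway factor D cleaves factor B bound to C3b, which amplifies C3 cleavage, and C7 is one of the terminal proteins that insert the membrane attack complex. The liver makes most circulating complement, while fibroblasts of the synovium are known to make several components locally, and complement proteins are found in osteoarthritic joints.

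C3 lies at the centre of the cascade and C7 showed the widest difference described below, so the 250 bases before their annotated starts are shown. The sequences are from RefSeq (GRCm38.p6), read on the minus strand from 5′ to 3′ at chr17:57228137-57228386 for C3 and chr15:5063774-5064023 for C7, with matches to the searched motifs in capitals.
C3: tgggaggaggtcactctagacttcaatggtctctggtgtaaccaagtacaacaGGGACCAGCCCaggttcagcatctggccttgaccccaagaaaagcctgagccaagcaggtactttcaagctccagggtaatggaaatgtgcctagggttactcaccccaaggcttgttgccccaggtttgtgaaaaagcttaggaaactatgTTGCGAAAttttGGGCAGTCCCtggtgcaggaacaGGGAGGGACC
C7: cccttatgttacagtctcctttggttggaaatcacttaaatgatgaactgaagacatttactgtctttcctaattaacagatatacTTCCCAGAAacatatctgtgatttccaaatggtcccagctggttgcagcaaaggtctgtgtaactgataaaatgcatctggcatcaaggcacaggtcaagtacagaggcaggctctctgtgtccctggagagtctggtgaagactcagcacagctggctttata
The motifs searched on both strands were TTGCNNAA (C/EBP), GGGNNNNNCC (NF-kB), TTCNNNGAA (STAT), GAAANNGAAA (IRF) and TGANTCA (AP-1). Among 27025 promoters of the same length, 9.55% held the C/EBP motif, 45.4% the NF-kB motif, 7.18% the STAT motif, 3.04% the IRF motif and 6.87% the AP-1 motif. The C3 window held a C/EBP match beginning 45 bases before the start and NF-kB matches beginning 197, 33 and 10 bases before it. A further NF-kB match on the other strand overlapped the first of these by all but 1 base, and the match at 33 bases reads the same motif on both strands. The C7 window held a STAT match 164 bases before the start and none of the other 4 motifs. Of the 9 genes, 5 had an entry in the sequence table used. Of the other 3 entries, C1s1 held a C/EBP match, Cfd an NF-kB match and C1ra no match. The C1ra window (chr6:124512371-124512620) lies mostly inside the gene as annotated below, which starts at 124512405. These matches describe letters in the windows and do not show binding.

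The coordinates below are from the GRCm38 annotation. C3 lies on chromosome 17 at 57203970-57228136, minus strand. C4b (34728380-34743882), Cfb (34856374-34862518) and C2 (34862604-34898265) lie on the minus strand of the same chromosome, with 85 bases between Cfb and C2. C1ra (124512405-124523443, plus strand) and C1s1 (124530345-124542359, minus strand) are neighbours on chromosome 6, separated by 6901 bases. C7 is on chromosome 15 (4988762-5063740, minus strand), Cfd on chromosome 10 (79890853-79892655, plus strand) and Serping1 on chromosome 2 (84765387-84775444, minus strand). C4b, C1ra and C1s1 each have a near-identical copy, and the counting could have split reads between copies: fibroblasts held 16, 43 and 17 UMIs of C4a, 10, 16 and 0 UMIs of C1rb and 7, 18 and 2 UMIs of C1s2 at 1 week, at 2 months and in control. How many reads matched both copies is not shown by these counts, so the values of these 3 genes are uncertain. C2 and C1s1 overlap the opposite-strand genes Zbtb12 and Gm16567, and the annotated read-through gene Gm20547 that spans C2 and Cfb was not among the counted genes.

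Barcodes were kept if they held 500 or more genes and no more than 10% mitochondrial UMIs, and numbered 12316 at 1 week, 9782 at 2 months and 8099 in control, from libraries of 179561680, 159333121 and 96782789 UMIs (unique molecular identifiers, each marking 1 captured mRNA molecule). Fibroblasts, defined by at least 1 Pdgfra UMI and no Ptprc or Cdh5 UMI, were 4748 cells at 1 week, 5317 cells at 2 months and 3781 cells in control. All 6 fibroblast markers (Pdgfra, Col1a1, Col1a2, Dcn, Lum, Pdpn) were detected in each library, summing to 38806 CPM at 1 week, 20493 CPM at 2 months and 22046 CPM in control. Here CPM is the UMIs of a gene in the cells of a class per 1000000 UMIs of these cells. Median depth of a fibroblast was 16492 UMIs at 1 week, 16085 UMIs at 2 months and 13153 UMIs in control, and its median mitochondrial share was 3.71%, 3.40% and 1.58% in the same order. Markers of other cells also differed in the fibroblast gate: the 6 macrophage markers summed to 65.3 CPM at 1 week, 47.6 CPM at 2 months and 147 CPM in control, the 4 neutrophil markers to 93.0 CPM at 1 week, 200.3 CPM at 2 months and 48.1 CPM in control, and the 4 chondrocyte markers (Col2a1, Col9a1, Matn3, Cnmd) to 122 CPM at 1 week, 10.4 CPM at 2 months and 1.96 CPM in control. Their part in the results was not tested. Pairs of libraries shared 21 to 30 barcodes.

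At 1 week after DMM, fibroblasts held far lower levels of C3, C4b, Serping1 and above all C7 than control fibroblasts, and more C2. At 2 months C3, C4b, Serping1 and C7 were within 1.5-fold of control, while C2 was still higher. At 1 week against control, 4 of the 9 genes were at least 2-fold lower (C3, C4b, C7 and Serping1) and 2 were at least 2-fold higher (C2 and Cfd). Over the 14582 genes with at least 50 UMIs in that comparison, 10.6% were at least 2-fold lower and 11.6% at least 2-fold higher. At 2 months against control, 1 gene was at least 2-fold higher (C2) and 1 at least 2-fold lower (Cfd), where 5.44% and 4.15% of 14620 genes were. At 2 months against 1 week, 5 genes were at least 2-fold higher (C3, C4b, C7, C1ra and Serping1) and Cfd was at least 2-fold lower, where 8.86% and 8.31% of 14999 genes were. The median log2 ratio of the 9 genes was -0.93 at 1 week against control, 0.11 at 2 months against control and 1.03 at 2 months against 1 week, against 0.02 over all genes in each of the 3. Most Cfd UMIs of 1-week fibroblasts lay in 1 barcode, described below. With the barcode of most Cfd left out of each library, the medians of the 9 genes were -1.38, 0.11 and 1.06 in the same order. All 9 genes passed the filter of 50 UMIs. The 1-week library enters both comparisons with it and the control library likewise, so their ratios are not independent.

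**Figure D1:**
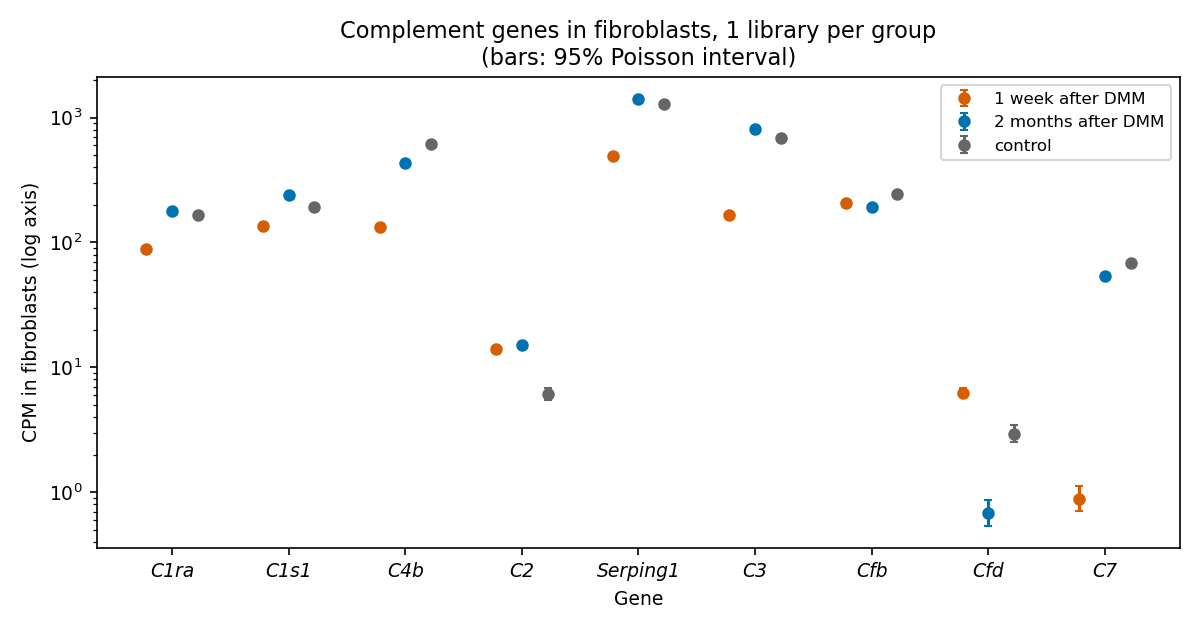
CPM of each complement gene in fibroblasts (log axis) at 1 week, at 2 months and in control, 1 point per library with its 95% Poisson interval. C3, C4b, Serping1 and C7 were lowest at 1 week, C2 was lowest in control, and the 3 libraries lay close together for Cfb.

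Of the classical pathway proteases, C1ra stood at 88.0 CPM (86.0 to 90.0) at 1 week, 180.2 CPM (178 to 183) at 2 months and 167 CPM (164 to 171) in control in fibroblasts. C1s1 stood at 135 CPM (132 to 137) at 1 week, 242 CPM (239 to 245) at 2 months and 194 CPM (190.2 to 198) in control. Both were lowest at 1 week and above control at 2 months. The ratio of 1 week to control was 0.527 (0.511 to 0.543) for C1ra and 0.696 (0.678 to 0.714) for C1s1, both short of 2-fold. The ratio of 2 months to control was 1.08 (1.05 to 1.11) for C1ra and 1.25 (1.22 to 1.28) for C1s1. Serping1, which encodes the inhibitor of these proteases, stood at 491 CPM (487 to 496) at 1 week, 1422 CPM (1415 to 1429.6) at 2 months and 1277 CPM (1268 to 1287) in control. It was 2.60-fold lower (2.57 to 2.63) at 1 week than in control and 1.11 times control at 2 months (interval 1.10 to 1.12), so it had the same order over the libraries as C1ra.

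C4b and C2, the substrates of C1s, did not move together. C4b, which encodes C4, stood at 132 CPM (129 to 134) at 1 week, 431 CPM (427 to 435) at 2 months and 612 CPM (605 to 618) in control, 4.64-fold lower (4.54 to 4.74) at 1 week than in control. At 2 months it was 3.27 times the 1-week level but still 0.704 (0.694 to 0.714) times control. C2 stood at 13.98 CPM (13.2 to 14.8) at 1 week, 15.2 CPM (14.4 to 16.0) at 2 months and 6.17 CPM (5.52 to 6.86) in control, from 1194, 1485 and 333 UMIs. It was higher in both DMM libraries, 2.27 (2.01 to 2.57) times control at 1 week and 2.47 (2.19 to 2.79) times control at 2 months. Over the alternatives run, other than the size of fold called, these C2 ratios ranged over 2.11 to 2.44 at 1 week and 2.34 to 3.55 at 2 months, so C2 stayed past 2-fold. C2 was the only one of the 9 genes higher than control by more than 2-fold at both times.

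C3, the protein on which all pathways converge, stood at 165 CPM (163 to 168) at 1 week, 811 CPM (805 to 816) at 2 months and 689 CPM (682 to 696) in control. The 1-week level was 4.16-fold lower (4.08 to 4.25) than control. The 2-month level was 4.90 (4.81 to 4.99) times the 1-week level and 1.18 (1.16 to 1.19) times control. Cfb, which encodes factor B, the partner of C3b in the alternative pathway, stood at 205 CPM (202 to 209) at 1 week, 194 CPM (191 to 197) at 2 months and 246 CPM (241 to 249.8) in control. It stayed within 1.5-fold among the libraries, at 0.837 (0.818 to 0.856) times control at 1 week and 0.789 (0.772 to 0.807) times control at 2 months. Cfb and C3 thus parted at 1 week: fibroblasts held 1.24 Cfb UMIs per C3 UMI at 1 week, 0.239 at 2 months and 0.357 in control.

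C7, the terminal pathway gene, showed the widest difference of the 9. It stood at 0.890 CPM (0.701 to 1.11) at 1 week, 53.9 CPM (52.5 to 55.4) at 2 months and 69.1 CPM (66.9 to 71.3) in control, from 76, 5261 and 3731 UMIs. The 1-week level was 77.6-fold lower (61.9 to 98.8) than control, and the 2-month level was 60.6 (48.3 to 77.0) times that at 1 week. Against control the 2-month ratio was 0.780 (0.748 to 0.814). That last ratio turned with the weighting of cells: it was 1.16 with equal weight per cell and 1.11 with every cell thinned to 3000 UMIs. The 1-week ratio also moved, to 0.0245 with equal weight, 0.0245 with thinning and 0.0406 when the Clic5, Pi16 and Gdf10 subsets were weighted to their mix in control. It was below 0.05 in each.

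Cfd, which encodes factor D and is best known as adipsin, an abundant product of adipocytes, stood apart from the others in that 1 barcode held most of its UMIs in 1-week fibroblasts. Fibroblasts held 537 Cfd UMIs at 1 week, 67 at 2 months and 159 in control, or 6.29 CPM at 1 week, 0.686 CPM at 2 months and 2.94 CPM in control. At 1 week 516 of the 537 UMIs lay in 1 barcode of 21825 UMIs that also held 30 Adipoq, 123 Car3 and 4 Pdgfra UMIs. Adipoq and Car3 are adipocyte markers. With the barcode of most Cfd left out of each library, the counts were 21, 50 and 133 UMIs. The ratio of 1 week to control was 2.14 (1.79 to 2.57) with these barcodes and 0.0998 (0.0598 to 0.159) without them. The ratio of 2 months to 1 week was 0.109 (0.0834 to 0.141) with them and 2.08 (1.23 to 3.65) without them, and the ratio of 2 months to control was 0.233 (0.173 to 0.312) and 0.208 (0.147 to 0.290). The count of genes past 2-fold at 1 week against control was then 1 higher and 5 lower. Among all cells the libraries held 658 Cfd UMIs at 1 week, 389 at 2 months and 5126 in control, and the 5 control barcodes with the most, 357 to 1461 UMIs each, held no Pdgfra UMI and lay outside the fibroblast gate. The 5 adipocyte markers summed to 2.66 CPM at 1 week, 1.97 CPM at 2 months and 3.54 CPM in control in fibroblasts. Lep was at 0 in each library. These sums include the barcodes of most Cfd, at 1 week the one with 30 Adipoq and 123 Car3 UMIs. Without these barcodes fibroblasts held 22 Adipoq UMIs at 1 week, 12 at 2 months and 37 in control.

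**Figure D2:**
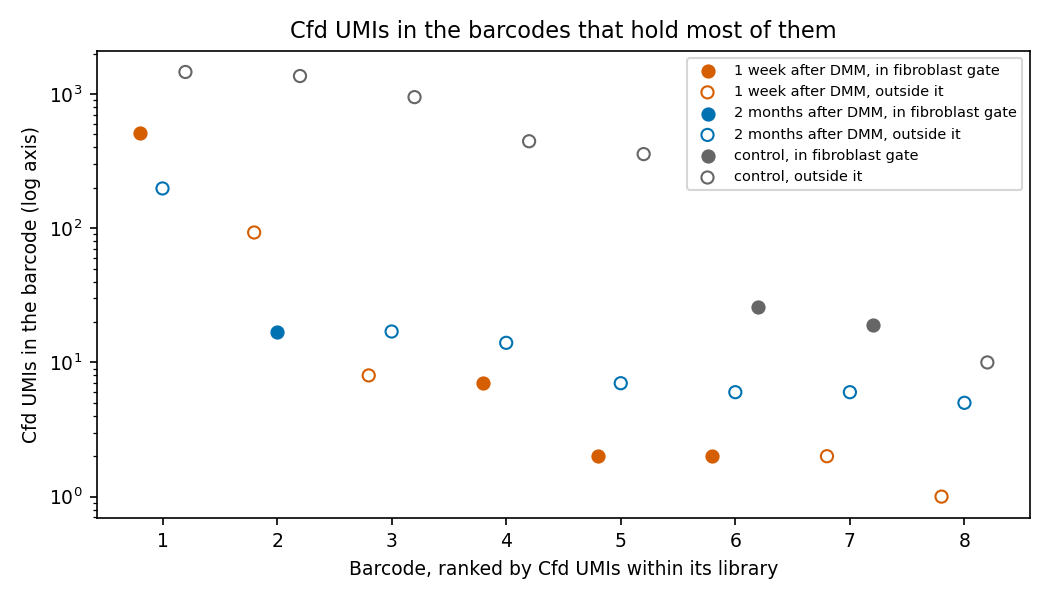
Cfd UMIs (log axis) of the 8 barcodes with most Cfd in each library; filled points lie in the fibroblast gate and open points outside it. The 1-week library had 1 filled point at 516 UMIs, while the top 5 control barcodes were open points of 357 to 1461 UMIs.

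The lower totals at 1 week came with fewer positive cells and fewer UMIs per positive cell. After every fibroblast was thinned to 3000 UMIs, which left out 20 cells at 1 week, 99 at 2 months and 121 in control, the share of cells with C3 was 25.5% at 1 week, 48.5% at 2 months and 54.6% in control. The unthinned shares were 47.2% at 1 week, 65.6% at 2 months and 67.1% in control. A positive cell held on average 2.34 thinned C3 UMIs at 1 week, 6.97 at 2 months and 4.52 in control. The share with at least 5 thinned C3 UMIs was 2.81% at 1 week, 25.0% at 2 months and 21.4% in control, so the 2-month cells were no more often positive than control cells but held more C3 where they were. The share of thinned cells with C4b was 24.6% at 1 week, 47.9% at 2 months and 54.6% in control, and the unthinned share 47.8% at 1 week, 66.6% at 2 months and 70.3% in control, with 2.05, 3.73 and 3.80 UMIs per positive cell. Serping1 was detected in 60.4% at 1 week, 78.5% at 2 months and 80.1% in control after thinning, and in 87.9% at 1 week, 89.7% at 2 months and 89.4% in control before it.

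C7 was detected in few fibroblasts at any time, with thinned shares of 0.360% at 1 week, 12.5% at 2 months and 13.2% in control and unthinned shares of 0.737% at 1 week, 20.5% at 2 months and 24.3% in control. C2 was also detected in few fibroblasts, but its share was lowest in control. Its thinned shares were 4.31% at 1 week, 5.33% at 2 months and 1.97% in control. Unthinned, they were 15.1% at 1 week, 14.6% at 2 months and 5.53% in control. For C1ra the thinned shares were 24.6% at 1 week, 41.3% at 2 months and 37.9% in control, for C1s1 30.7% at 1 week, 47.1% at 2 months and 41.4% in control and for Cfb 34.4% at 1 week, 34.5% at 2 months and 40.4% in control. The unthinned shares were 66.8% at 1 week, 79.3% at 2 months and 72.5% in control for C1ra, 69.6% at 1 week, 77.1% at 2 months and 71.6% in control for C1s1 and 66.1% at 1 week, 55.1% at 2 months and 59.0% in control for Cfb. Neutrophils, which should lack most of these transcripts, gave a measure of free RNA: their unthinned shares were 2.05% at 1 week, 10.2% at 2 months and 5.00% in control for C4b, 0% at 1 week, 0.742% at 2 months and 0% in control for C7 (upper limits of the zeros 1.07% at 1 week and 5.96% in control), 0.877% at 1 week, 0.148% at 2 months and 0% in control for C2 (upper limit of the zero 5.96%), and 7.60% at 1 week, 21.4% at 2 months and 8.33% in control for Serping1. A neutrophil held a median of 1929.5, 4852 and 3002 UMIs in the 3 libraries, well under a fibroblast. Fibroblast shares lay above the neutrophil shares for these 4 genes in each library, though the 1-week C7 share of 0.737% lay under the upper limit that 0 of 342 neutrophils allow. The 76 C7 UMIs of 1-week fibroblasts were not spread evenly over the cells: 48 of them lay in the 152 cells with 3 or more Pi16 UMIs described below, while 1 C7 UMI was found in all 1969 macrophages of that library.

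The number of the 9 genes detected per fibroblast was lowest at 1 week. After thinning, 35.9% (34.5 to 37.2) of fibroblasts at 1 week, 55.7% (54.4 to 57.1) at 2 months and 60.2% (58.6 to 61.8) in control held UMIs of at least 3 of the 9. Cells with none made up 21.1% at 1 week, 11.9% at 2 months and 10.9% in control. The 1-week distribution had its highest bar at 1 gene (24.3%) and fell away from there. The 2-month distribution had high points at 1 gene (19.4%) and at 6 genes (14.1%), and the control distribution at 1 gene (17.2%) and at 5 genes (18.9%), so both held cells with few and cells with many of the genes. No thinned cell in any library held all 9.

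**Figure D3:**
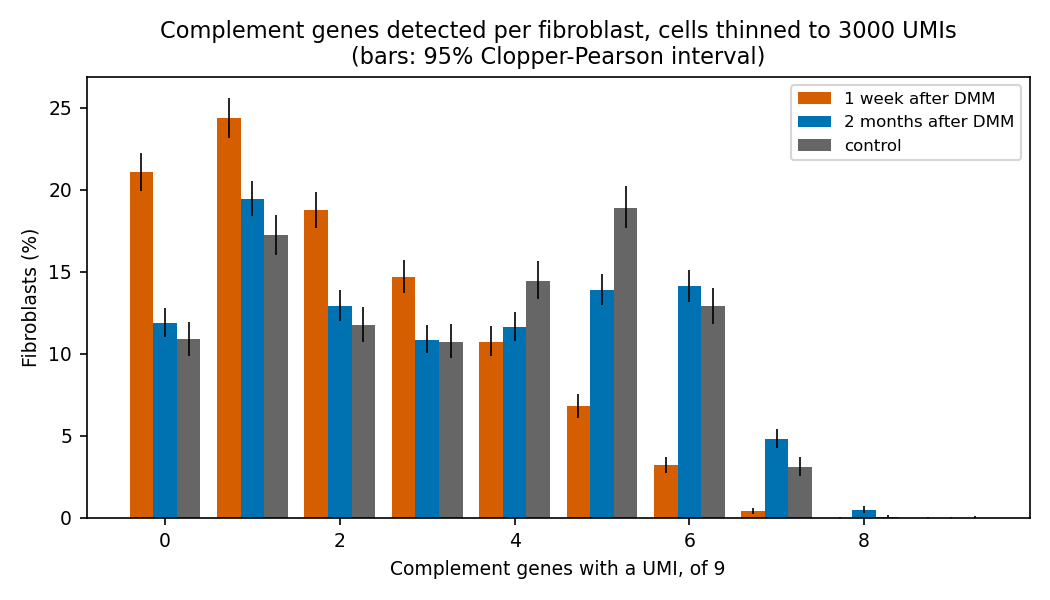
Share of fibroblasts (%) by how many of the 9 complement genes they held a UMI of, after thinning to 3000 UMIs, with 95% Clopper-Pearson intervals. The 1-week bars decline from 1 gene on, while the 2-month and control bars have a second high point at 5 to 6 genes.

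C3-positive and C3-negative fibroblasts differed in their other complement genes within each library. Of thinned C3-positive cells, 48.5% held C4b at 1 week, 75.3% at 2 months and 77.8% in control. Among C3-negative cells the shares were 16.4%, 22.003% and 26.8%. Cfb showed the same pattern, detected in 63.8% of C3-positive cells at 1 week, 60.6% at 2 months and 64.4% in control, against 24.3%, 9.87% and 11.7% of C3-negative cells. C2 went with C3 in the DMM libraries, at 7.30% of C3-positive against 3.29% of C3-negative cells at 1 week and 8.45% against 2.38% at 2 months, but in control the shares were 2.00% and 1.92%. C3 transcripts were also concentrated: the tenth of cells with most C3 held 69.5% of thinned C3 UMIs at 1 week, 53.9% at 2 months and 42.9% in control. For Serping1 that share was 42.2%, 30.8% and 30.5%, so Serping1 was spread over more cells than C3.

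Fibroblast subsets were defined by at least 1 UMI of Clic5, which marks the synovial lining, of Pi16, which marks progenitor-like fibroblasts around vessels, or of Gdf10, a secreted BMP family protein of sublining fibroblasts. Clic5-positive cells numbered 376 at 1 week, 1786 at 2 months and 1650 in control. Pi16-positive cells numbered 406, 1376 and 665, and Gdf10-positive cells 383, 1266 and 1083, and 1 cell can belong to several subsets. Clic5-positive cells held less of each gene but Cfd than both other subsets, in each library: C3 was 7.80-fold lower there than in Pi16-positive cells at 1 week, 8.29-fold lower at 2 months and 3.35-fold lower in control. Against Gdf10-positive cells, C3 in Clic5-positive cells was 6.58-fold, 7.78-fold and 2.61-fold lower in the same libraries. The share of all genes lower in Clic5-positive cells was not computed. In these cells the 4 lining markers (Prg4, Clic5, Tspan15, Has1) summed to 67935 CPM at 1 week, 86473 CPM at 2 months and 79330 CPM in control. The part of this lining RNA, and of the gate described below, was not tested. At least 3 of the 9 genes were detected in 13.0% of thinned Clic5-positive cells at 1 week, 20.3% at 2 months and 39.3% in control. In Pi16-positive cells the shares were 59.7%, 77.6% and 74.0%, and in Gdf10-positive cells 57.7%, 82.5% and 83.9%.

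In Clic5-positive fibroblasts C3 stood at 48.8 CPM at 1 week, 201 CPM at 2 months and 377 CPM in control, C4b at 71.3 CPM at 1 week, 134 CPM at 2 months and 384 CPM in control and Cfb at 98.2 CPM at 1 week, 52.2 CPM at 2 months and 133 CPM in control. C7 had no UMI at 1 week, against 10.4 CPM at 2 months and 38.2 CPM in control. Set at the floor of 3 UMIs, the 1-week C7 level was 96.3-fold lower than control. The floor stands in for the absent UMIs, so this value is not a lower limit on the difference. Of the 9 genes, 7 were at least 2-fold lower at 1 week than in control and none at least 2-fold higher, where 8.22% and 5.88% of genes were. Against control, 4 were lower at 2 months (C4b, C7, Cfb and Cfd) and none higher, against 6.60% and 3.97% of genes. Of 8 genes past the filter, 3 were higher and none lower at 2 months against 1 week, against 4.48% and 4.92%.

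The Clic5 gate itself differed between libraries. Macrophages free of Pdgfra and Cdh5 held a Clic5 UMI in 1.10% of cells at 1 week, 5.28% at 2 months and 29.4% in control, and Clic5 in fibroblasts stood at 52.9 CPM at 1 week, 394 CPM at 2 months and 849.6 CPM in control. In the stricter endothelium described below the shares with a Clic5 UMI were higher, at 16.0% at 1 week, 49.7% at 2 months and 66.4% in control. In fibroblasts they were 7.92%, 33.6% and 43.6%. Of the stricter endothelium, 3.72%, 24.9% and 26.5% held 3 or more Clic5 UMIs. A gate of 3 or more Clic5 UMIs, chosen after the data were seen, kept 215 cells at 1 week, 1236 at 2 months and 807 in control. Under it C3 stood at 11.4 CPM at 1 week, 69.8 CPM at 2 months and 52.4 CPM in control, so that the ratio of 2 months to control became 1.33 (1.23 to 1.44), against 0.534 (0.519 to 0.549) with 1 UMI. The 1-week ratio of C3 was 0.217 (0.159 to 0.290). Cfb stood at 61.1 CPM at 1 week, 23.7 CPM at 2 months and 24.6 CPM in control, and its ratio of 1 week to control turned to 2.49 (2.12 to 2.91), from 0.738 (0.681 to 0.799) with 1 UMI. C2 stood at 4.18 CPM at 1 week, 2.04 CPM at 2 months and 1.11 CPM in control, a ratio of 3.78 (1.86 to 7.70) at 1 week. C7 at 1 week remained without a UMI, 5.47-fold lower than control when set at the same floor. Serping1 stood at 443 CPM at 1 week, 817 CPM at 2 months and 596 CPM in control.

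Pi16-positive fibroblasts held C3 at 381 CPM at 1 week, 1667 CPM at 2 months and 1261 CPM in control and C4b at 311 CPM at 1 week, 625 CPM at 2 months and 611 CPM in control. This gate differed between libraries as well. A Pi16 UMI was found in 2.32% at 1 week, 9.47% at 2 months and 5.51% in control of the macrophages free of Pdgfra and Cdh5, against 8.55% at 1 week, 25.9% at 2 months and 17.6% in control of fibroblasts. In the Pi16-positive cells the 4 progenitor markers summed to 982 CPM at 1 week, 1986 CPM at 2 months and 2395 CPM in control, and the 4 lining markers to 4184 CPM at 1 week, 26558 CPM at 2 months and 25013 CPM in control. With 3 or more Pi16 UMIs the lining markers summed to 1789 CPM at 1 week, 4809 CPM at 2 months and 4630.1 CPM in control, and the ratio of 1 week to control for C3 was 0.401 (0.381 to 0.423), against 0.302 (0.290 to 0.315) with 1 UMI. The part of the gate in these differences was not tested. C7 stood at 6.64 CPM at 1 week, 100.4 CPM at 2 months and 217 CPM in control, the widest difference in this subset, with a ratio of 0.0306 (0.0225 to 0.0408) at 1 week and 0.463 (0.436 to 0.492) at 2 months against control. C1s1 stood at 210.1 CPM at 1 week, 418 CPM at 2 months and 228 CPM in control, a ratio of 1.84 (1.75 to 1.93) at 2 months. Cfb differed little, at 326 CPM at 1 week, 329 CPM at 2 months and 316 CPM in control. C2 stood at 19.2 CPM at 1 week, 24.6 CPM at 2 months and 7.05 CPM in control, and its ratio to control was 2.73 (2.01 to 3.73) at 1 week and 3.49 (2.70 to 4.60) at 2 months. With 3 or more Pi16 UMIs these C2 ratios were 10.2 (5.27 to 21.5) and 13.0 (7.20 to 26.4), from 11 control UMIs. Under this stricter gate C4b was 0.978 (0.916 to 1.04) times control at 1 week, against 0.510 (0.485 to 0.535) with 1 UMI. Of the 8 genes past the filter, Cfd being left out here, 2 were at least 2-fold lower and 1 higher at 1 week (6.95% and 8.17% of genes), and 1 lower and 1 higher at 2 months (2.12% and 5.08%). Between 2 months and 1 week, 5 of 8 were higher at 2 months and none lower (6.93% and 4.96%).

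Gdf10-positive fibroblasts held C3 at 321 CPM at 1 week, 1564 CPM at 2 months and 984 CPM in control and C4b at 347 CPM at 1 week, 826 CPM at 2 months and 879.8 CPM in control. A Gdf10 UMI was found in 0.428% at 1 week, 2.71% at 2 months and 0.771% in control of the macrophages free of Pdgfra and Cdh5, against 8.07% at 1 week, 23.8% at 2 months and 28.6% in control of fibroblasts. Here C7 stood at 6.31 CPM at 1 week, 157 CPM at 2 months and 99.5 CPM in control, so that the 2-month level was 1.58 (1.49 to 1.68) times control, on the other side of 1 from Pi16-positive cells. With 3 or more UMIs of the subset gene the C7 ratio of 2 months to control was 2.66 (2.41 to 2.94) in Gdf10-positive and 0.417 (0.389 to 0.447) in Pi16-positive cells. C3 was 1.59 (1.56 to 1.62) times control at 2 months in Gdf10-positive cells. C2 stood at 30.0 CPM at 1 week, 45.5 CPM at 2 months and 15.4 CPM in control, 1.94 (1.59 to 2.37) times control at 1 week and 2.95 (2.55 to 3.42) times control at 2 months. Of 8 genes past the filter, 4 were at least 2-fold lower and none higher at 1 week (6.44% and 7.59% of genes). At 2 months 1 was higher and none lower (4.58% and 1.95%), and at 2 months against 1 week 5 of 8 were higher and none lower (6.24% and 4.63%). Fibroblasts without a UMI of Clic5, Pi16 or Gdf10 numbered 3670 at 1 week and 1080 in control, and held 2 and 707 C7 UMIs.

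Acan, which encodes the cartilage proteoglycan aggrecan, was detected in 2465 of the 4748 fibroblasts at 1 week, in 389 at 2 months and in 2 in control. Within the 1-week library C3 stood at 122 CPM in Acan-positive and 219 CPM in Acan-negative fibroblasts, a ratio of 0.555 (0.536 to 0.574). C4b stood at 79.1 and 196 CPM, a ratio of 0.403 (0.387 to 0.419). Of the 76 C7 UMIs at 1 week, 2 lay in Acan-positive and 74 in Acan-negative cells, a ratio of 0.0221 (0.00262 to 0.0826). Serping1 was also lower in the Acan-positive cells at 1 week, at a ratio of 0.619 (0.607 to 0.631), and Cfb at 0.616 (0.598 to 0.634). The ratios of C1ra, C1s1 and C2 were 0.703, 0.718 and 0.724. Cfd held 13 UMIs in Acan-positive and 524 in Acan-negative cells, most of the latter in its 1 barcode. The share of all genes lower in Acan-positive cells was not computed. At 2 months the ratios were 0.422 (0.407 to 0.437) for C3, 0.484 (0.462 to 0.506) for C4b and 0.0909 (0.0667 to 0.121) for C7. The Acan-negative 1-week cells still held less C3 and C4b per UMI than control fibroblasts as a whole, which stood at 689 and 612 CPM. For Mmp13, a collagenase gene, the ratio of positive to negative fibroblasts at 1 week was 1.06 (1.02 to 1.10) for C3, 0.746 (0.713 to 0.781) for C4b and 1.00 (0.980 to 1.02) for Serping1, but 0.280 (0.108 to 0.608) for C7. At 2 months, when 187 fibroblasts held Mmp13, it was 0.784 (0.753 to 0.816) for C3, 0.569 (0.533 to 0.606) for C4b, 0.737 (0.714 to 0.760) for Serping1 and 0.334 (0.261 to 0.422) for C7, so these 4 genes were lower in the positive cells. Cells with Thbs4, which encodes the matrix protein thrombospondin-4, had less C3 and C4b than cells without it, with ratios at 1 week of 0.708 (0.685 to 0.733) for C3 and 0.508 (0.489 to 0.528) for C4b. Proliferating (Mki67-positive) fibroblasts held C3 at 76.4 CPM at 1 week, 303 CPM at 2 months and 460.1 CPM in control, and Myoc-positive fibroblasts, which express the secreted protein myocilin, held C3 at 584 CPM at 1 week, 1935 CPM at 2 months and 1158 CPM in control and C4b at 512 CPM at 1 week, 872 CPM at 2 months and 926 CPM in control.

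Fibroblasts held most of the UMIs of 8 of the 9 genes in each library. Their share of C3 UMIs was 69.2% at 1 week, 82.7% at 2 months and 84.7% in control, where they held 48.6%, 62.6% and 55.9% of all UMIs. For C4b the shares were 74.1%, 84.6% and 81.8%, and for C7 79.2%, 84.9% and 81.9%. C2 was less confined, at 58.3%, 71.8% and 59.6%, with 15.2% of control C2 UMIs in macrophages. Cfd was the exception, at 81.6%, 17.2% and 3.06%.

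In endothelium (at least 1 Cdh5 UMI, no Ptprc UMI), 6 of the 9 genes were at least 2-fold lower and 1 higher at 1 week than in control (8.38% and 7.70% of genes). At 2 months 1 was lower and none higher (2.82% and 3.72%), and at 2 months against 1 week 5 were higher and none lower (6.93% and 5.21%). In macrophages (at least 3 C1qa UMIs) 4 were lower and none higher at 1 week (9.96% and 8.66%), 2 lower and none higher at 2 months (3.93% and 3.96%), and 5 of 8 higher and none lower at 2 months against 1 week (7.30% and 6.13%). Fibroblast marker RNA was present in both gates: the 6 fibroblast markers summed to 11514 CPM at 1 week, 4737 CPM at 2 months and 5919 CPM in control in endothelium and to 6370.4 CPM at 1 week, 3367 CPM at 2 months and 2998 CPM in control in macrophages. Stricter gates were therefore set after the data were seen. They required at least 2 Pecam1 and no Pdgfra UMI in endothelium, and no Pdgfra and no Cdh5 UMI in macrophages.

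In the stricter endothelium of 1316, 877 and 872 cells, C3 stood at 7.99 CPM at 1 week, 35.0 CPM at 2 months and 20.9 CPM in control, against 49.6 CPM at 1 week, 225 CPM at 2 months and 161 CPM in control before. C4b stood at 6.57 CPM at 1 week, 15.1 CPM at 2 months and 15.9 CPM in control. Serping1 stood at 59.4 CPM at 1 week, 141 CPM at 2 months and 102 CPM in control, a ratio to control of 0.581 (0.529 to 0.639) at 1 week and 1.38 (1.27 to 1.502) at 2 months. These 3 genes were lower at 1 week than in control, as in fibroblasts. Lining RNA left in this gate was lower too: the 4 lining markers summed to 261 CPM at 1 week, 1216 CPM at 2 months and 2478 CPM in control, and 3 or more UMIs of the lining gene Prg4 were found in 22.3% at 1 week, 90.2% at 2 months and 99.4% in control of these cells. The 6 fibroblast markers summed to 1777 CPM at 1 week, 573 CPM at 2 months and 437 CPM in control. Their part in the 3 genes was not tested. Cfb was not lower at 1 week, at 48.1 CPM at 1 week, 54.6 CPM at 2 months and 38.3 CPM in control, a ratio of 1.26 (1.10 to 1.44). Per C3 UMI the stricter endothelium held 6.02 Cfb UMIs at 1 week, 1.56 at 2 months and 1.83 in control, against the fibroblast values of 1.24, 0.239 and 0.357.

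In the stricter macrophages of 1636, 739 and 908 cells, several genes ran another way than in fibroblasts. C3 in macrophages stood at 50.3 CPM at 1 week, 49.2 CPM at 2 months and 23.6 CPM in control. The ratio of 1 week to control for C3 was 0.240 in fibroblasts and 2.13 (1.82 to 2.497) in these macrophages. With at least 3 C1qa UMIs as the sole requirement, C3 stood at 64.4 CPM at 1 week, 164 CPM at 2 months and 110.3 CPM in control, a ratio of 0.583 (0.541 to 0.629) at 1 week, lower as in fibroblasts, so the opposite direction held for the stricter gate alone. The 4 neutrophil markers summed to 832 CPM at 1 week, 5057 CPM at 2 months and 89.5 CPM in control in the stricter macrophages and the 4 lining markers to 312 CPM at 1 week, 1630.2 CPM at 2 months and 4076 CPM in control, and their part in the C3 levels was not tested. C2 in macrophages stood at 4.41 CPM at 1 week, 1.49 CPM at 2 months and 7.75 CPM in control. Its ratio to control was 2.27 in fibroblasts and 0.569 (0.403 to 0.805) in macrophages at 1 week, and 2.47 in fibroblasts and 0.192 (0.0971 to 0.352) in macrophages at 2 months. Cfb in macrophages stood at 50.4 CPM at 1 week, 14.2 CPM at 2 months and 26.9 CPM in control, highest at 1 week. C4b stood at 21.996 CPM at 1 week, 98.6 CPM at 2 months and 123 CPM in control, a ratio of 0.179 (0.158 to 0.201) at 1 week, lower than control as in fibroblasts. Fibroblasts held 0.797 C4b UMIs per C3 UMI at 1 week, 0.531 at 2 months and 0.888 in control, while macrophages held 0.438, 2.00 and 5.22. Neutrophils (342, 674 and 60 cells) held C3 at 208 CPM at 1 week, 279 CPM at 2 months and 153 CPM in control, with 0.0336 C4b UMIs per C3 UMI at 1 week, 0.0661 at 2 months and 0.0732 in control. The differences between cell types were not tested.

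**Figure D4:**
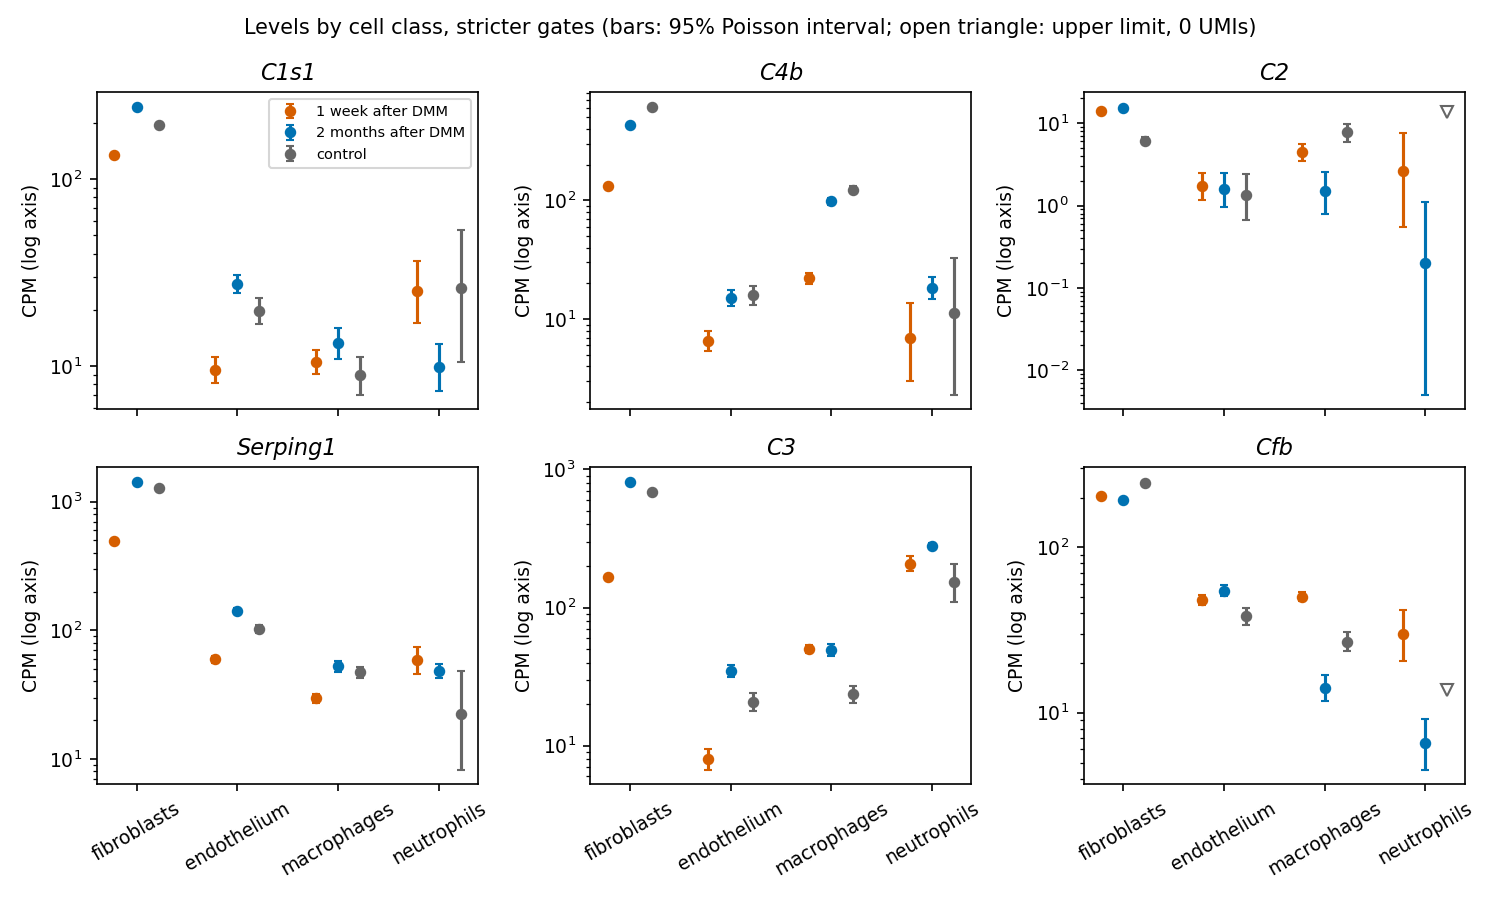
CPM (log axis) of C1s1, C4b, C2, Serping1, C3 and Cfb in fibroblasts, stricter endothelium, stricter macrophages and neutrophils at 1 week, at 2 months and in control, with 95% Poisson intervals; an open triangle is the upper limit of a class with 0 UMIs. C1s1, C4b and Serping1 were highest in fibroblasts in each library, C3 was also high in neutrophils, and the control intervals of C2 in fibroblasts and macrophages overlapped.

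Among 44 other complement genes, 26 passed the filter at 1 week against control, and 12 of these were at least 2-fold lower and 2 higher (10.6% and 11.6% of all genes). Against control, 9 of 27 were lower and 3 higher at 2 months (4.15% and 5.44% of all genes), and at 2 months against 1 week 4 of 28 were lower and 7 higher (8.31% and 8.86%). Their median log2 ratio was -0.86, -0.63 and 0.30 in these comparisons. Cd55, which encodes decay accelerating factor, a regulator of C3 cleavage, and was also on the progenitor marker list, stood at 65.0 CPM at 1 week, 248 CPM at 2 months and 284 CPM in control, a ratio of 0.229 (0.222 to 0.237) at 1 week. Clusterin (Clu) and vitronectin (Vtn), inhibitors of the terminal complex, stood at 30.2 CPM at 1 week, 58.6 CPM at 2 months and 68.4 CPM in control and at 2.47 CPM at 1 week, 5.01 CPM at 2 months and 8.46 CPM in control. Cd59a, which encodes the membrane inhibitor of that complex, ran the other way, at 30.4 CPM at 1 week, 5.90 CPM at 2 months and 9.11 CPM in control, 3.34 (3.03 to 3.68) times control at 1 week, and Cd59b stood at 4.204 CPM at 1 week, 1.80 CPM at 2 months and 3.15 CPM in control.

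Of the lectin pathway, the protease gene Masp1 stood at 22.7 CPM at 1 week, 12.0 CPM at 2 months and 2.22 CPM in control, 10.2 (8.50 to 12.4) times control at 1 week and 5.38 (4.46 to 6.55) times control at 2 months. The collectin gene Colec10 stood at 0.152 CPM at 1 week, 0.891 CPM at 2 months and 17.9 CPM in control, from 13, 87 and 965 UMIs, 0.00852 (0.00452 to 0.0146) times control at 1 week. The other genes past 2-fold with at least 200 UMIs are expressed by macrophages or other leukocytes and endothelium: C1qa stood at 16.9 CPM at 1 week, 14.1 CPM at 2 months and 50.8 CPM in control, and C1qb, C1qc, Vsig4 and C3ar1 were also lower in both DMM libraries than in control, as was the macrophage marker list given above. Itgam at 1 week, C5ar1 and Cfp at 2 months against control, and Cd93 at 2 months against 1 week, with a ratio of 0.469 (0.382 to 0.574), were lower as well. Among those with most UMIs in fibroblasts were Colec12 (212 CPM at 1 week, 355 CPM at 2 months and 274 CPM in control), Cd55, Cr1l (54.95 CPM at 1 week, 82.3 CPM at 2 months and 92.7 CPM in control) and C1qbp (70.6 CPM at 1 week, 59.8 CPM at 2 months and 59.9 CPM in control).

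The likeness of other genes to each member was measured by Pearson r of log2(CPM + 1) over 15 points, the Clic5, Pi16 and Gdf10 positive fibroblasts, endothelium and macrophages of the 3 libraries, among 12393 genes with at least 500 UMIs. The points share libraries and cells, and r is a description. Most like C3 were Gm765 (r = 0.977), Gm10115 (0.976) and Apod (0.968). Most like C4b were Dpep1 (r = 0.968), Scn7a (0.966) and Mt2 (0.962), and most like C7 were Abca8a (r = 0.973), 9330159F19Rik (0.964) and Inmt (0.962). C1ra went with Serping1 (r = 0.987), Abi3bp (0.986) and Entpd2 (0.981), and C1s1 with Abi3bp (r = 0.988), Svep1 (0.988) and C1ra (0.981). Serping1 went with C1ra (r = 0.987), Alms1 (0.980) and Entpd2 (0.977). C1ra, C1s1 and Serping1, a pair of proteases and their inhibitor, were thus partly listed for each other. Cfb went with Gpc6 (r = 0.974), Fgf7 (0.971) and Ogn (0.968). C2 had lower values, for Slc1a3 (r = 0.922), Chrdl1 (0.916) and Gm48025 (0.912). Cfd went with Kcna5 (r = 0.991), Sertad1 (0.980) and Tcf15 (0.972). Some of its points held few UMIs, with 6 in macrophages at 1 week and 6 at 2 months. Of the 99 Cfd UMIs of endothelial cells outside the macrophage gate at 1 week, 93 lay in 1 barcode. The r values of Cfd thus rest in part on few cells.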

How the data were processed

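The 3 deposited matrices hold whole UMI counts per gene and cell barcode, from Cell Ranger 5.0.1 at 2 months and Cell Ranger 5.0.0 in both other libraries, per the file headers. The submitters' processing notes name Cell Ranger 6.0.1 and mm10. Counts were summed over the cells of a class and divided by the class total (CPM). A gene was called at a ratio of 2-fold with at least 50 UMIs over both sums together. Intervals at 95% are Clopper-Pearson on shares, exact Poisson on CPM and conditional binomial on ratios. The ratio intervals alone were checked, on simulated Poisson counts. Such counts hold no clustering of UMIs in cells, so the check does not cover it. Each group was 1 pooled library, so no test was made. Doublets were left in; Scrublet, run per library, called 4.29% of cells at 1 week, 4.45% at 2 months and 4.07% in control, and their removal was an alternative. Named were all 9 genes, other complement genes past 2-fold with at least 200 UMIs, the 5 with most UMIs, and the 3 genes most like each member. A gene of the other complement list is not reported here. The members, lists and gates were chosen with earlier results of these data known. Python 3.11.15, numpy 2.4.6, scipy 1.17.1, pandas 2.3.3, scanpy 1.11.5 and matplotlib 3.10.9 were used.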

Additional observations from a re-analysis of the deposited data

Results flagged for a closer look

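Some genes differed between libraries in opposite directions in different cell classes, by at least 1.5-fold each and with counting intervals on opposite sides of 1. These differences between classes were not tested, since each class and time is 1 library. For C2, the ratio of 2 months to control was 2.47 in fibroblasts, 3.49 in Pi16-positive fibroblasts, 2.95 in Gdf10-positive fibroblasts and 1.93 in endothelium, but 0.369 in macrophages. The C2 ratio of 2 months to 1 week was 1.52 in Gdf10-positive fibroblasts, 0.595 in Clic5-positive fibroblasts and 0.505 in macrophages. With the stricter endothelial gate the C2 ratio of 2 months to control was 1.17 (0.531 to 2.73), from 19 and 11 UMIs, so the opposite direction in endothelium held for the looser gate, while in stricter macrophages it was 0.192.

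For C7, the ratio of 2 months to control was 1.58 in Gdf10-positive fibroblasts, 0.271 in Clic5-positive fibroblasts, 0.463 in Pi16-positive fibroblasts and 0.564 in endothelium. For C3 it was 1.59 in Gdf10-positive and 0.534 in Clic5-positive fibroblasts. With 3 or more Clic5 UMIs required the C3 ratio in Clic5-positive cells was 1.33, so the opposite direction of C3 held for the gate of 1 UMI. Under the same gate the C7 ratio in Clic5-positive cells was 0.778 (0.563 to 1.08), and in the stricter endothelium it was 1.43 (0.643 to 3.39), from 21 and 10 UMIs. The C7 difference between Gdf10-positive and Pi16-positive cells kept its directions with 3 or more UMIs, at 2.66 and 0.417.

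For Cfd, the ratio of 1 week to control was 2.14 in fibroblasts, where 1 barcode held 516 of 537 UMIs. It was 0.183 in endothelium, 0.0559 in macrophages and 0.214 in Clic5-positive fibroblasts (0 UMIs at 1 week, set at the floor of 3). The ratio of 2 months to 1 week for Cfd was 1.55 in endothelium (1.41 with the stricter gate) and 0.109 in fibroblasts. Without the fibroblast barcode of most Cfd in each library the fibroblast ratios were 0.0998 and 2.08. Endothelial Cfd at 1 week also lay mostly in 1 barcode, with 93 of the 99 UMIs of endothelial cells outside the macrophage gate. That barcode held 44 Adipoq, 281 Car3 and 18 Cdh5 UMIs as well. The endothelial ratios were not computed without it.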

How the results depend on the processing

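No paired analysis was possible because each group was 1 library. Of 180 counts of called genes recomputed under the alternatives, 147 stayed within 1.5 times of the value given. In fibroblasts all 9 genes also passed at 200 UMIs, so the settings of the low-count filter could not change a count. The fibroblast ratios of single genes moved more: 134 stayed inside the main counting interval, 133 moved outside it and 3 reversed. The exceptions among the counts follow, each as a count of the complement genes at least 2-fold different. In fibroblasts at 1 week against control, 1 gene was higher with equal weight per cell, with thinned cells, with the control mix of subsets and without the barcode of most Cfd, against 2. At 2 months against control, 0 were lower with thinned cells, and at 2 months against 1 week 0 were lower without that barcode, against 1 each. The Cfd ratio turned to 0.689 at 1 week with the control mix of subsets, to 0.0998 without the barcode, and to 2.08 at 2 months against 1 week without it.

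The remaining alternatives were chosen after seeing the data. A gene that fell under 50 UMIs in a gate could not be counted there. At 1 week against control 7 genes passed the filter with 3 or more Clic5 UMIs and 8 with Clic5 alone, against 9. In Clic5-positive cells at 1 week, cells with no Pi16 or Gdf10 UMI gave 1 higher and 4 lower, and 3 or more Clic5 UMIs gave 1 higher and 3 lower, against 0 and 7. Against control, 3 or more UMIs gave 0 lower at 2 months, against 4, and at 2 months against 1 week both gates and doublet removal gave 2 lower, against 0. In Pi16-positive cells at 1 week, cells with Pi16 as the sole subset gene and scaling by the median ratio gave 4 lower, against 2. At 2 months against control the sole-gene gate and 3 or more UMIs gave 2 higher, against 1, and equal weight 0 lower, against 1. For 2 months against 1 week, 3 or more UMIs and equal weight gave 2 higher, against 5. In Gdf10-positive cells at 1 week 3 or more UMIs gave 2 lower, against 4, and equal weight 1 higher, against 0; at 2 months against control both gates and equal weight gave 2 higher, against 1. In the stricter endothelium and macrophages 7 genes passed the filter, against 9 in endothelium and 9, 9 and 8 in macrophages. Stricter endothelium gave 0 higher at 1 week, against 1. Stricter macrophages gave 1 higher and 1 lower at 1 week, against 0 and 4, 1 and 1 at 2 months, against 0 and 2, and 1 higher and 2 lower at 2 months against 1 week, against 5 and 0. The causes were not tested. Over 14 fibroblast settings the ratio of 1 week to control ranged over 0.231 to 0.288 for C3 and 0.207 to 0.303 for C4b. It ranged over 0.366 to 0.462 for Serping1 and 0.0121 to 0.0406 for C7. The main setting is among the 14, and those of the fold called and the low-count filter leave these ratios unchanged by construction. Without the filter on low counts the median log2 ratio of all genes shifted to -0.66, -0.55 and -0.19 in the comparisons of 1 week with control, 2 months with control and 2 months with 1 week. Sums under 50 UMIs were not called, which left Cfd out in Pi16-positive and Gdf10-positive cells. At 2 months against 1 week Cfd was also left out in Clic5-positive cells and macrophages. C7 had no UMI in Clic5-positive cells at 1 week.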
